A study of Mus musculus with 12 samples.

Results

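The nuclear-encoded oxidative phosphorylation genes were represented by 138 of the 12114 transcripts (contigs) of the count table, from 94 of its 7009 gene symbols. They were selected by name only: every contig whose mouse gene symbol starts with Nduf, Cox4 to Cox8, Uqcr, Atp5 or Sdha to Sdhd, or is Cycs, Cyct or Cyc1. Complex I (NADH dehydrogenase) contributed 54 contigs of 38 genes, complex II (succinate dehydrogenase) 4 contigs of 4 genes, complex III (cytochrome bc1) 13 of 9, complex IV (cytochrome c oxidase) 22 of 14 and complex V (ATP synthase) 32 of 17. Cytochrome c, the carrier of electrons between complexes III and IV, had 2 contigs of 2 genes, assembly factors 9 contigs of 9 genes and the ATP synthase inhibitor Atp5if1 2 contigs. Ndufa4 and Ndufa4l2, despite their symbols, were placed with complex IV. The annotation classes 121 of the contigs as protein coding, and 32 of the genes had several contigs, at most 4.

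Round spermatids (RS) and elongated spermatids (ES) had been sorted from testes of adult male mice, and their poly(A) RNA was sequenced as native RNA molecules on a nanopore device. Tent5c wt/wt mice, which carry the normal allele of the cytoplasmic poly(A) polymerase TENT5C, were set against Tent5c dcat/dcat mice, which express a catalytically dead TENT5C in somatic cells such as Leydig cells as well as in germ cells. Each of the 4 groups held 3 libraries, and each library was a pool of RNA from the spermatids of 3 mice, so errors and p-values describe the spread between pools. Both stages of a genotype were sorted from the same mice, which the fits treat as independent unless a pairing is named. Library totals ran from 337287 (ES wt/wt replicate 3) to 1359427 counts (RS wt/wt replicate 3), and all 138 contigs passed the filter on low counts. Of the markers of somatic cells, those of Leydig cells summed to 69.0 to 129 counts per 1000000 (CPM, after the scaling named below) in RS wt/wt against 486 to 929 in ES wt/wt, and those of Sertoli cells to 24.9 to 34.3 and 219 to 386. In dcat/dcat, the Leydig sum ran between 73.4 and 105 in RS, then between 289.8 and 1069 in ES, and the Sertoli sum between 8.55 and 44.6, then 301 and 444. Both sums were higher in every ES library than in any RS library, with 6 of 7 Leydig genes and 6 of 6 Sertoli genes higher in ES wt/wt by the edgeR test used below, although the defining Sertoli markers Sox9, Wt1, Amh, Gata4 and Fshr had no contig. Of the 12 Leydig genes listed, Star, Hsd3b1, Hsd3b6, Hsd17b3 and Lhcgr had no contig. The macrophage marker C1qb, the only 1 of 8 with a contig, measured 4.15 to 8.28 CPM in RS wt/wt against 35.3 to 62.8 in ES wt/wt. No contig matched the 11 markers of peritubular, vascular and blood cells. Meiotic markers of the wt/wt libraries summed to 2438 to 2598 CPM at the RS stage, then 2256 to 2737 at the ES stage. Of their 12 genes, 3 were higher in ES (25.0%, against 25.6% of all genes) and 4 lower (33.3%, against 23.4%). Much of this sum was Ybx2 (means by gene of 1098, then 1301 CPM), whose protein the paper describes as a translational repressor in spermatids. The sum is therefore no measure of meiotic cells. Spo11 averaged 90.2, then 32.1 CPM, and Sycp3 76.4, then 49.8, whereas Syce2 averaged 109, then 362. The spermatid markers followed the gates, 7 of 7 being higher in ES, with sums of 19136 to 41377 CPM in the RS libraries and 209060 to 278447 in the ES libraries.

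Oxidative phosphorylation couples the transfer of electrons from NADH and succinate to oxygen, through complexes I to IV of the inner mitochondrial membrane, to the pumping of protons, which drive the ATP synthase. Most subunits are encoded in the nucleus, translated in the cytosol and imported, while a small core is encoded by mitochondrial DNA. Male germ cells are known for replacing some somatic subunits by testis isoforms, among them the testis cytochrome c Cyct, Cox6b2, Cox7b2 and Cox8c, and in the elongating spermatid the mitochondria gather around the midpiece of the tail.

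The starts of 4 genes of the testis and somatic pairs are shown because the testis member of each pair fell between the stages while its somatic counterpart did not, and because their sequences hold different motifs of factors known to bind promoters of respiratory genes. Each window covers 250 bases before and 50 after the annotated start, 5′ to 3′ on the gene's strand, from RefSeq on GRCm38.p6, and capitals mark a match. These motifs were searched on both strands: TGACGTCA (the CRE, bound by CREB and CREM), GCGCATG (a core of NRF-1 sites, seen as CATGCGC on the other strand) and CCGGAAG (a core of GABP sites, CTTCCGG on the other strand).
Cyct: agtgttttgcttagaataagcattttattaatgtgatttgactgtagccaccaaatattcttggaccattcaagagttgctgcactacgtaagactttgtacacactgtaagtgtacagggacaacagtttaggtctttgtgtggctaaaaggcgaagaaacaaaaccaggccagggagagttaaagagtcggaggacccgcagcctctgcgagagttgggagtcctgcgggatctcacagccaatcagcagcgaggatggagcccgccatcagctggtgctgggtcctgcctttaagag
Cycs: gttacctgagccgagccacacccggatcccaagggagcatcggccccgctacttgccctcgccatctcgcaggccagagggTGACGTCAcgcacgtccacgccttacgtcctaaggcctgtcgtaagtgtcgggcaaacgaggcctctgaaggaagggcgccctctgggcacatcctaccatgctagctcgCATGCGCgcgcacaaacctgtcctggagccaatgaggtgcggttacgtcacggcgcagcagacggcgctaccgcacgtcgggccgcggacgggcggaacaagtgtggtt
Cox6b2: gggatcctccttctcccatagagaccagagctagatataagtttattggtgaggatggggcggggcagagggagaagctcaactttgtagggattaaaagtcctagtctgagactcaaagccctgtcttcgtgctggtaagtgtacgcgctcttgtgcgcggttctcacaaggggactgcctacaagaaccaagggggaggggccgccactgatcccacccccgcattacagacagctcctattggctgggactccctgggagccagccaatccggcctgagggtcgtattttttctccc
Cox6b1: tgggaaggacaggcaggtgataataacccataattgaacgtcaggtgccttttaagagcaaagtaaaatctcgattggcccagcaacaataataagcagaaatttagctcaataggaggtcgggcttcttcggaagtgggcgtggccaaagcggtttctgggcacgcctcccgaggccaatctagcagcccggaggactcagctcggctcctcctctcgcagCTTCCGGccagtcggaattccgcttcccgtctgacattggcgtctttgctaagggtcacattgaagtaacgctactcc
The windows lie on the minus strand at chr2:76360404-76360703 for Cyct, chr6:50566520-50566819 for Cycs, chr7:4753045-4753344 for Cox6b2 and chr7:30626065-30626364 for Cox6b1. Somatic Cycs held 1 CRE and 1 NRF-1 core, somatic Cox6b1 held 1 GABP core, and the windows of the testis isoforms Cyct and Cox6b2 held none of these letters. This contrast was part of the choice of the 4 genes. Among other genes of the pairs named below, Cox8a held the GABP core, while Cox7b2, Ndufb11b and the somatic Ndufb11 and Ndufa4 held none. Each motif was absent from most member windows. Among the 78 member genes with a window, the CRE was found in 5 (6.41%), the NRF-1 core in 15 (19.2%) and the GABP core in 18 (23.1%). The shares among all 32851 windows of the same length were 1.79%, 3.91% and 8.86%. These matches describe letters and do not show that a site is bound.

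Members took a smaller part of the sequenced RNA in elongated than in round spermatids. Their share of library counts was 2.57% ± 0.125 (SD, n = 3) in RS wt/wt, 2.52% ± 0.169 in RS dcat/dcat, 1.29% ± 0.0452 in ES wt/wt against 1.30% ± 0.0753 in ES dcat/dcat. Every ES library lay below every RS library. The 10 most abundant contigs took 6.91% of the counts in RS wt/wt against 20.6% in ES wt/wt, and outside them the member share was 2.76% ± 0.149 against 1.63% ± 0.0534. A typical contig of the whole table lost nearly as much of its share as a typical member. With scaling by total counts, the median log2 change in wt/wt was -1.04 over members against -0.96 over all tested contigs. In dcat/dcat the same medians stood at -0.92 for members against -0.85 for all tested contigs. A share also falls when other transcripts rise. In bulk RNA, such a rise, fewer cells of a type and less RNA per cell cannot be told apart.

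The make-up of the member counts shifted from complex IV to complex V. Complex IV held 33.0% ± 0.639 of member counts in RS wt/wt against 26.1% ± 1.69 in ES wt/wt, and 32.9% ± 0.762 and 26.1% ± 0.424 in dcat/dcat. Complex V rose from 15.0% ± 0.382 to 23.0% ± 1.003 in wt/wt and from 14.7% ± 0.718 to 22.6% ± 0.594 in dcat/dcat. For both complexes the 6 RS and 6 ES libraries did not overlap, whereas complex I stayed between 30.3% and 31.8% in the group means. These shares use no scaling between libraries. The rise of complex V was uneven between its genes. Atp5mj held 210, 230 and 449 of the 23019, 17979 and 33891 member counts in RS wt/wt. In ES wt/wt Atp5mj held 362, 497 and 201 of 7961, 9004 and 4504. With counts summed by gene, 6 of the 17 complex V genes were higher in ES wt/wt (35.3%, against 25.6% of all genes) by the edgeR test used below. Of the rest, 2 were lower (11.8%, against 23.4%) and 9 were not called.

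**Figure D1:**
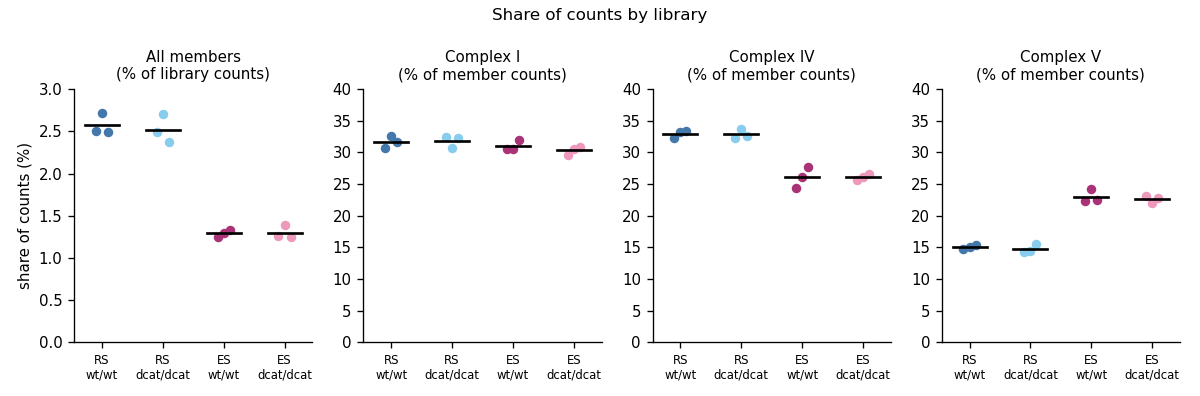
Share of counts per library, with each point 1 library, the horizontal line the mean of 3 libraries, and every axis starting at 0. The left panel gives the members' percentage of all library counts, and the others the percentage of member counts held by complexes I, IV and V. The ES libraries lie at 1.29% and 1.30% against 2.57% and 2.52% for RS, complex IV falls from about 33.0% to 26.1%, and complex V rises to 23.0%.

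The comparison of ES with RS in wt/wt asked which member transcripts gained or lost their share of the RNA pool during elongation. By edgeR's quasi-likelihood test with Benjamini-Hochberg adjustment over 11831 contigs (called at an adjusted p at or under 0.05), 21 of the 138 members were higher in ES (15.2%, against 23.8% of all contigs) and 40 were lower (29.0%, against 16.5%). The median log2 change was -0.32 over the members and -0.24 over all contigs tested. With counts summed by gene, 17 of 94 genes were higher (18.1%, against 25.6% of all genes) and 36 lower (38.3%, against 23.4%). Leaving out 1 library at a time gave 40 to 59 called members, the fewest without ES wt/wt replicate 2. Lower calls fell to 24 without ES wt/wt replicate 2 and to 26 without replicate 1 of that group. The shares over all contigs are not given for these fits.

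The split between higher and lower calls rested on the scaling. Library size factors by TMM assume that most contigs do not move, and scaling by total counts shifted the median of all contigs by -0.71. Under total counts 8 members were called higher and 78 lower, so 9.30% of the calls were higher, against 34.4% with TMM. Over all contigs 16.5% were then called higher and 45.7% lower, against 5.80% and 56.5% of the members. All 40 members that fell were still called lower under total counts. Of the 21 that rose, 8 were still called higher, 0 were called lower by edgeR, and 7 had a value below 0. With at least 10 counts demanded of every library, 79 members were left, with 6 called higher (7.59%, against 33.4% of the 3719 contigs left) and 52 lower (65.8%, against 36.2%).

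More contigs of complexes I and IV were called lower than higher in ES, and in complex V more were called higher than lower. In complex I, 6 contigs were called higher (11.1%) and 18 lower (33.3%) of 54, with a median log2 change of -0.57. In complex IV 3 were higher (13.6%) and 9 lower (40.9%) of 22, with a median of -0.54. Complex V had 9 higher (28.1%) and 3 lower (9.38%) of 32 and a median of 0.30, so that its higher share lay near the 23.8% of all contigs and its lower share below their 16.5%. That median was -0.42 under total counts and 0.02 among the 19 complex V contigs that passed the stricter filter, where 4 were higher and 6 lower. Relative to the median of all contigs it stood 0.54 higher with TMM, 0.53 higher under total counts and 0.09 higher with the stricter filter. Complex III had 2 higher and 4 lower of 13 (median -0.32), complex II 0 higher and 1 lower of 4 (median -0.53), and the assembly factors 0 higher and 3 lower of 9 (median -0.69). The most counted contig of each gene gave 16 higher (17.0%, against 23.8% of all contigs) and 38 lower (40.4%, against 16.5%) of 94. The further 44 contigs of these genes gave 5 higher (11.4%) and 2 lower (4.55%). By the way they were chosen, the further contigs held fewer counts than the first contig of their gene. Only 15.9% of them were called, against 57.4% of the most counted contigs, so the 2 sets are not compared in direction.

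**Figure D2:**
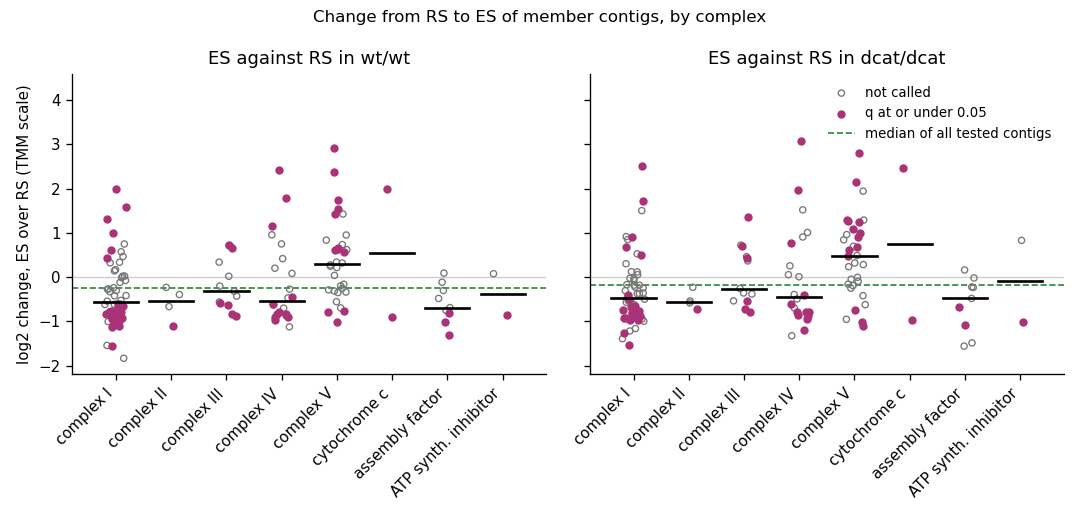
Log2 change from RS to ES (TMM scale) of each member contig by complex, in wt/wt on the left and dcat/dcat on the right. Filled points passed an adjusted p at or under 0.05, open points did not, black bars are medians of a complex, and the dashed line is the median of all tested contigs. The bar of complex V stands at 0.30 in wt/wt and 0.48 in dcat/dcat, while those of complexes I and IV stand at -0.57 and -0.54 in wt/wt and at -0.47 and -0.45 in dcat/dcat.

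The largest called increase in wt/wt belonged to a contig of Atp5mj, a small membrane subunit of the ATP synthase. This contig, ENSMUST00000223191 (GRCm38 chr12:111961516-111966957, minus strand, 4 exons), measured 24.1, 29.8 and 31.9 CPM in the RS wt/wt libraries and 207, 234 and 212 in ES wt/wt. All ES libraries lay far above all RS libraries, in dcat/dcat too, where the values were 13.9, 27.5 and 28.8 against 199, 165 and 130.0. The log2 change was 2.92 (SE 0.264, adjusted p = 2e-06, edgeR) in wt/wt and 2.80 (SE 0.273, adjusted p = 4.41e-06) in dcat/dcat. A further contig, ENSMUST00000222874, rose from 40.7, 79.8 and 99.3 CPM to 382, 443 and 325 in wt/wt, a log2 change of 2.38 (SE 0.294, adjusted p = 2e-05, edgeR). The contig with the most Atp5mj counts in RS, ENSMUST00000021719, measured 109.7, 164 and 134 CPM and then 175, 268 and 173, a log2 change of 0.61 (adjusted p = 0.035, edgeR) that was -0.11 under total counts. Its share of the gene's counts was 57.8% in RS wt/wt against 25.2% in ES wt/wt, with 54.5% and 30.7% in dcat/dcat. Summed over its 3 contigs, Atp5mj rose by 1.90 (adjusted p = 1.69e-07, edgeR by gene) in wt/wt and by 1.88 in dcat/dcat.

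Further ATP synthase subunits were higher in ES. Atp5mc1 and Atp5mc2 encode the same mature c subunit of the proton-driven ring. Atp5mc1 measured 54.8, 75.1 and 70.4 CPM in RS wt/wt against 219.7, 183 and 127 in ES wt/wt (log2 change 1.42, SE 0.248, adjusted p = 0.000404, edgeR). Atp5mc2 measured 9.97, 9.53 and 15.4 CPM and then 38.0, 34.2 and 31.8 (log2 change 1.53, adjusted p = 0.00112, edgeR). For neither did the stages overlap, but Atp5mc2 has a near-identical copy elsewhere in the annotation, at 95% identity or more over at least 80% of the contig, so its reads are uncertain. Atp5f1e, the epsilon subunit of the central stalk and the most counted contig of the complex, measured 344, 485 and 420.5 CPM in RS wt/wt against 649, 757 and 554 in ES wt/wt. Its log2 change of 0.65 (adjusted p = 0.00736, edgeR) was -0.062 under total counts. The stalk subunit Atp5pf went down, with a log2 change of -0.77 in wt/wt (adjusted p = 0.00312, edgeR) and -1.01 in dcat/dcat, as did Atp5if1, which inhibits the enzyme when it runs in reverse (-0.85 and -1.01).

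Outside complex V, Ndufa13, an accessory subunit of complex I also known as GRIM-19, had the smallest adjusted p among the members that rose after the first Atp5mj contig. The contig (chr8:69894180-69902558, minus strand, 5 exons) measured 132, 172 and 199.9 CPM in RS wt/wt against 608, 768 and 632 in ES wt/wt. RS dcat/dcat gave 152, 191 and 188, and ES dcat/dcat 639.9, 567 and 537. The lowest ES library was thus well above the highest RS library. The log2 change was 1.99 (SE 0.187, adjusted p = 2.45e-06, edgeR) in wt/wt, 1.71 (SE 0.187, adjusted p = 9e-06) in dcat/dcat, and 1.29 in wt/wt under total counts. Ndufb7, another accessory subunit, went from 98.0, 122 and 109 CPM to 243, 217 and 191 (log2 change 0.99, adjusted p = 0.000846, edgeR). Under total counts its call was lost in wt/wt (0.27, adjusted p = 0.186) and in dcat/dcat (0.23, adjusted p = 0.266, edgeR).

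Ndufa4, now counted as a complex IV subunit, was sparse. It measured 1.66, 3.57 and 2.96 CPM in RS wt/wt against 12.7, 24.7 and 3.53 in ES wt/wt, so the groups overlapped and the floor of 3 counts lay at 10.6 CPM in the third ES library. The log2 change was 2.42 (adjusted p = 0.00478, edgeR), and 1.78 (adjusted p = 0.0789) without ES wt/wt replicate 2. In dcat/dcat the RS libraries held 4.27, 3.93 and 1.65 CPM and the ES libraries 20.9, 25.0 and 35.5, a log2 change of 3.07 (adjusted p = 0.000447, edgeR). Both members on the X chromosome were higher in ES wt/wt: Ndufa1 by a log2 value of 1.31 (adjusted p = 0.014, edgeR) and Ndufb11, at 4.15, 5.96 and 6.51 CPM in RS and 19.0, 17.1 and 14.1 in ES, by 1.58 (adjusted p = 0.00914). Neither call was kept under total counts, at 0.59 (adjusted p = 0.199) and 0.87 (0.087, edgeR). Ndufb11 had 5, 5 and 11 reads against 9, 9 and 4, and its call was also lost without the libraries numbered 1 (1.35, adjusted p = 0.0603, edgeR). In dcat/dcat 1 of the 2 was called. Of all 222 tested contigs on X, 43.7% were higher in ES wt/wt against 12.2% lower.

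The members that fell included abundant subunits of complex IV. Cox8c, the testis isoform of the small subunit Cox8 and the most counted contig of complex IV (chr12:102899316-102900526, plus strand, 2 exons), measured 1310.2, 1493 and 1330.0 CPM in RS wt/wt against 769, 751 and 802 in ES wt/wt. In dcat/dcat it measured 1341, 1492 and 1195 and then 739.6, 831 and 658. The stages did not overlap in either genotype, with log2 changes of -0.83 (SE 0.142, adjusted p = 0.000327, edgeR) and -0.85 (adjusted p = 0.000267). Cox5a, a subunit used in all tissues (chr9:57521279-57532426, plus strand), went from 529, 593 and 564 CPM to 285, 337 and 279 in wt/wt, again without overlap. Its log2 change was -0.90 (SE 0.147, adjusted p = 0.000236, edgeR) in wt/wt and -0.94 in dcat/dcat. Cox6c and Cox7c, small subunits found in all tissues, changed by -0.84 and -0.85 in wt/wt. Cox7b2, a testis isoform, measured 569, 664 and 652 CPM in RS wt/wt against 266, 299 and 399 in ES wt/wt, a log2 change of -0.98 (adjusted p = 0.000767, edgeR). In dcat/dcat the change of Cox7b2 was -1.20 (adjusted p = 0.000153, edgeR).

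In complex I the fall covered the accessory subunits Ndufa6 (328, 419 and 314 CPM in RS wt/wt against 175, 171 and 159 in ES wt/wt, log2 change -1.06, adjusted p = 0.000306, edgeR) and Ndufc1 (-0.79, adjusted p = 0.00126), the most counted contig of the complex. Ndufs1, a core subunit that carries iron-sulfur clusters and was named after its values were seen, changed by -0.94 (adjusted p = 0.0324, edgeR). In complex II, the iron-sulfur subunit Sdhb measured 194 and 165 CPM on average, a log2 change of -0.23 that did not pass (adjusted p = 0.338, edgeR). The only complex II contig called in wt/wt was Sdhc, a membrane anchor, at -1.10 (adjusted p = 0.00927, edgeR). Among the assembly factors the most counted was Ndufaf3 of complex I, whose libraries scattered widely: 928, 374 and 387 CPM in RS wt/wt against 953, 158 and 251 in ES wt/wt. Replicate 1 was highest in both stages, and the log2 change of -0.30 did not pass (adjusted p = 0.695, edgeR). Without the 4 libraries numbered 1 it was -0.91 (adjusted p = 0.0213, edgeR).

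Complex III, which passes electrons from ubiquinol to cytochrome c, was split, and its members other than Uqcrq are named after their values were seen. The Rieske iron-sulfur protein Uqcrfs1 (log2 change -0.59), the core proteins Uqcrc1 (-0.64) and Uqcrc2 (-0.88) and the small subunit Uqcrb (-0.83) were lower in ES wt/wt, with adjusted p of 0.0125, 0.0166, 0.015 and 0.0044 by edgeR. The small subunit Uqcr11 was higher (0.67, adjusted p = 0.0154, edgeR). Cyc1, the cytochrome c1 that hands the electron on, measured 19.1, 9.53 and 10.6 CPM in RS wt/wt against 27.5, 19.0 and 17.7 in ES wt/wt, overlapping groups with a log2 value of 0.71 that did not pass (adjusted p = 0.132, edgeR). In dcat/dcat Cyc1 passed, at 1.36 (adjusted p = 0.00861, edgeR), and the interaction of 0.65 did not (unadjusted p = 0.229).

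**Figure D3:**
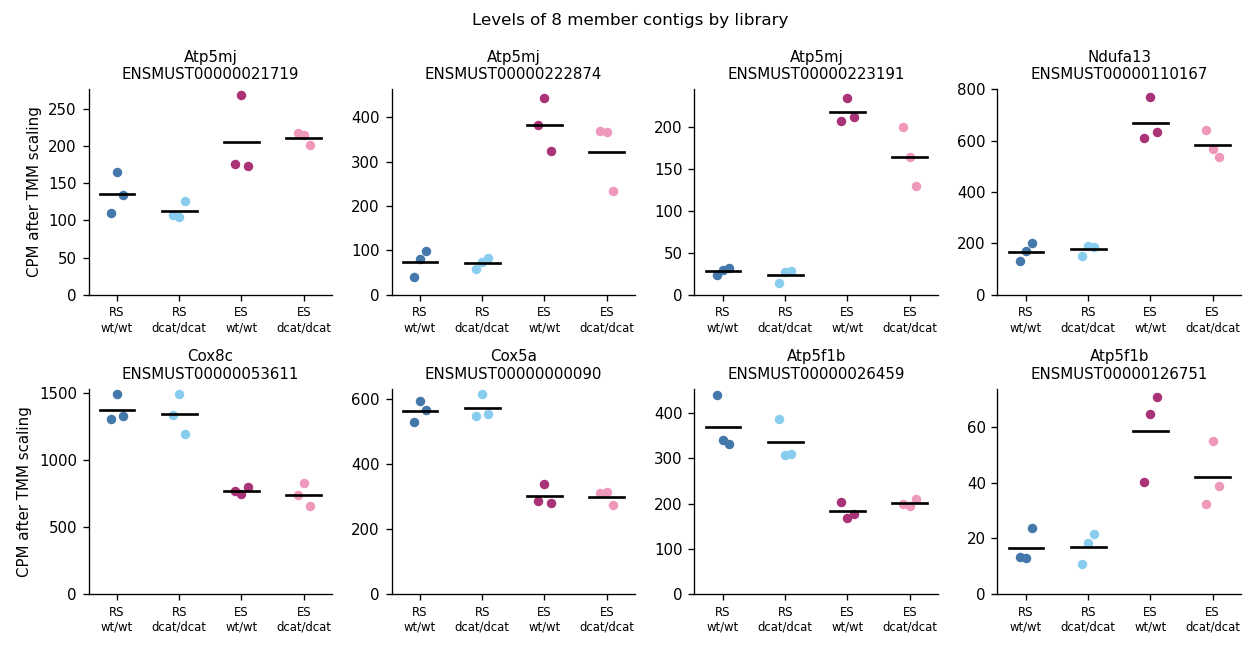
Level of 8 member contigs in each library, in CPM after TMM scaling, with each point 1 library, the line the mean of 3, and every axis starting at 0. The 3 contigs of Atp5mj, Ndufa13 and the 3-exon contig of Atp5f1b lie higher in ES than in RS. Cox8c, Cox5a and the coding contig of Atp5f1b lie lower in ES in both genotypes.

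Testis isoforms were set against their somatic counterparts. Of the 4 pairs considered, Cox7b had no contig, which left 3. Testis Cyct (chr2:76353942-76360450, minus strand, 4 exons) measured 179, 201 and 185 CPM in RS wt/wt against 127, 110.3 and 56.5 in ES wt/wt, a log2 change of -0.91 (SE 0.286, adjusted p = 0.0197, edgeR). Somatic Cycs (chr6:50562563-50566538, minus strand, 3 exons) measured 12.5, 10.7 and 17.1 CPM and then 52.8, 72.3 and 35.3, a log2 change of 1.98 (SE 0.324, adjusted p = 0.000235, edgeR), which was 1.26 under total counts. In dcat/dcat Cycs went from 19.2, 11.8 and 12.4 CPM to 85.8, 89.9 and 67.5 (log2 change 2.47, adjusted p = 3.59e-05, edgeR) and Cyct from 168, 223 and 161 to 60.3, 129.8 and 92.9 (-0.96, adjusted p = 0.0149). For both genes and both genotypes the stages did not overlap. The call of Cyct was lost in some fits without 1 library, at -0.87 (adjusted p = 0.0537) without RS wt/wt replicate 2, -0.90 (0.066) without ES wt/wt replicate 2 and -0.64 (0.0904, edgeR) without ES wt/wt replicate 3. The dcat/dcat call of Cyct was lost as well, at -0.81 (adjusted p = 0.0612) without RS dcat/dcat replicate 2, -0.72 (0.0583) without ES dcat/dcat replicate 1 and -0.92 (0.0593, edgeR) without ES dcat/dcat replicate 3. Cycs has 4 partial copies of other genes at 95% identity or more over 200 bases or more, none of them in the count table.

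Counted as a share within a pair, which needs no scaling between libraries, Cyct made up 93.3% ± 1.72 (SD, n = 3) of the cytochrome c counts in RS wt/wt, 92.5% ± 2.65 in RS dcat/dcat, 64.2% ± 5.58 in ES wt/wt against 52.8% ± 9.96 in ES dcat/dcat. The lowest RS library stood at 89.7% and the highest ES library at 70.6%. The counts behind these shares were small for Cycs, with 15, 9 and 29 reads in RS wt/wt against 25, 38 and 10 in ES wt/wt. The ES share minus the RS share was -34.5 percentage points over both genotypes, with lower values in 6 of 6 ES libraries than in any RS library (two-sided exact permutation test, labels permuted within genotype, p = 0.005, the smallest that the 400 arrangements allow, adjusted p = 0.01 over 6 tests). Because both stages came from the same mice, the labels were also exchanged only between same-numbered RS and ES libraries of a genotype, an alternative chosen after seeing the data. This gave p = 0.03125 for each of the 3 pairs, the smallest that 64 arrangements allow, and an adjusted p of 0.0625, so the stage difference of no pair passed in that exact test. The size of the Cyct difference depended on the counting. With counts divided by contig length, also chosen after seeing the data, it was -11.9 points. The deposited values count whole reads of RNA molecules, which do not call for a division by length.

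Cox6b2, the testis isoform of a subunit at the interface of the complex IV dimer, was 96.2% of its pair with Cox6b1 in RS wt/wt, 95.8% in RS dcat/dcat, 92.8% in ES wt/wt against 88.5% in ES dcat/dcat. The difference between ES and RS was -5.34 points (exact permutation p = 0.005, adjusted p = 0.01). Cox6b2 itself measured 555, 519.5 and 510.3 CPM in RS wt/wt against 332, 253 and 265 in ES wt/wt (log2 change -0.90, adjusted p = 0.000338, edgeR). Cox6b1 measured 19.1, 33.4 and 21.3 CPM and then 33.8, 26.6 and 21.2, overlapping groups with a log2 value of 0.20 (adjusted p = 0.627, edgeR) that was -0.52 under total counts. In dcat/dcat Cox6b1 went from 26.7, 27.5 and 23.1 to 37.1, 49.9 and 43.9 (log2 change 0.76, adjusted p = 0.0486, edgeR, and 0.0855 by DESeq2). That call was also lost in 5 fits without 1 library, at adjusted p of 0.0777 to 0.132 by edgeR.

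Cox8c was 99.3% of its pair with Cox8a in both RS groups, 97.3% in ES wt/wt against 94.9% in ES dcat/dcat, a difference between ES and RS of -3.18 points (exact permutation p = 0.005, adjusted p = 0.01). Cox8a measured 7.48, 14.3 and 8.28 CPM in RS wt/wt against 23.2, 20.9 and 21.2 in ES wt/wt, a log2 change of 1.16 (adjusted p = 0.0198, edgeR) that was 0.45 under total counts (adjusted p = 0.289). The wt/wt call of Cox8a was also lost without RS wt/wt replicate 1 (adjusted p = 0.0615), RS wt/wt replicate 3 (0.0655) or ES wt/wt replicate 1 (0.0501), and without all libraries numbered 1 (0.085, edgeR). In dcat/dcat its values were 6.41, 13.1 and 10.7, then 39.4, 39.9 and 38.8 (log2 change 1.96, adjusted p = 0.00038, edgeR). The genotype difference of the shares, dcat/dcat minus wt/wt over both stages, did not pass in any pair: -6.12 points for Cyct (exact permutation p = 0.08, adjusted p = 0.08), -2.33 for Cox6b2 (p = 0.04, adjusted 0.06) and -1.18 for Cox8c (p = 0.05, adjusted 0.06). With both stages of a number kept together these exact p were 0.2, 0.1 and 0.1, where 20 arrangements allow no p below 0.1.

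Further pairs were added after their values were seen and are given without a test. Ndufb11b, a copy of Ndufb11 in 1 exon on an autosome (chr15:81980540-81981563), was 98.0% of the pair in RS wt/wt, 98.6% in RS dcat/dcat, 88.4% in ES wt/wt against 83.2% in ES dcat/dcat. Ndufb11b measured 309, 291 and 239.5 CPM in RS wt/wt against 137, 107 and 145 in ES wt/wt (log2 change -1.12, adjusted p = 0.000447, edgeR). Ndufa4l2 against Ndufa4 gave 94.1% in both RS groups, 69.1% in ES wt/wt against 54.7% in ES dcat/dcat, with wide scatter. Cycs, Cox8a and Ndufb11 were higher in the same ES libraries in which the Leydig and Sertoli markers were higher, and the part of somatic cells in these shares was not tested.

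**Figure D4:**
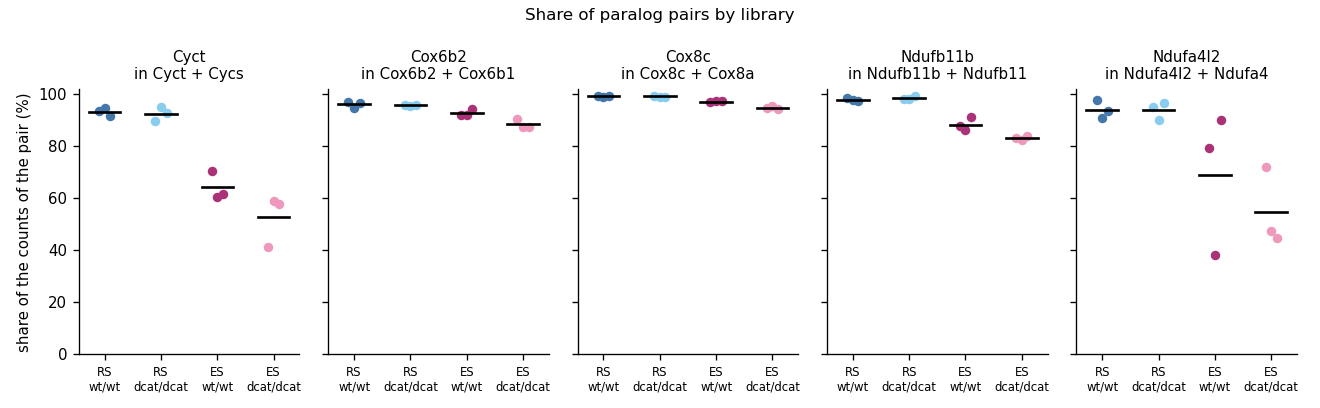
Share of the testis isoform or copy in the counts of its pair, in percent, per library. Each point is 1 library and each line the mean of 3 libraries. The share of Cyct stands at 93.3% and 92.5% in RS and at 64.2% and 52.8% in ES, while those of Cox6b2 and Cox8c differ by -5.34 and -3.18 points.

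Contigs of the same gene sometimes went in opposite directions. Atp5f1b, the catalytic beta subunit, had a coding contig of 10 exons (ENSMUST00000026459, chr10:128083273-128090391, plus strand, 1916 bases) and a processed transcript of 3 exons (ENSMUST00000126751, chr10:128088552-128090273, 478 bases) at the 3′ end of the same locus. The coding contig measured 440.3, 339.6 and 331 CPM in RS wt/wt against 203, 169 and 177 in ES wt/wt (log2 change -1.02, adjusted p = 0.000384, edgeR). The short contig measured 13.3, 13.1 and 23.7 CPM and then 40.1, 64.7 and 70.6 (log2 change 1.74, adjusted p = 0.00133, edgeR). Neither contig's stages overlapped, and the short contig held 4.44% of the gene's counts in RS wt/wt, 24.2% in ES wt/wt, 4.92% in RS dcat/dcat and 17.2% in ES dcat/dcat. Summed over both, the gene changed by -0.53 (adjusted p = 0.00612, edgeR by gene). Overlapping contigs share sequence, so a read that does not reach the 5′ end cannot always be told apart between them.

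Uqcrq, a small subunit of complex III whose longest contig was the most counted of that complex, showed opposite calls in dcat/dcat only. ENSMUST00000109021 changed by 0.70 (adjusted p = 0.0076, edgeR), ENSMUST00000061326 by 0.44 (adjusted p = 0.0402) and ENSMUST00000109019 by -0.54 (adjusted p = 0.0411). In wt/wt the same contigs changed by 0.73, 0.34 and -0.43, of which the first passed (adjusted p = 0.00634, edgeR). The dcat/dcat call of ENSMUST00000061326 was lost with RLE size factors (adjusted p = 0.0516), with the stricter filter (0.16, adjusted p = 0.336), by gene (0.0812), without the libraries numbered 1 (0.0783) and in 5 fits without 1 library (0.0714 to 0.122, edgeR). Under total counts its value was -0.24. The difference between the genotypes was not called for any of them.

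The other genes of the pathway differed by group. All 11 mitochondrially encoded subunits with a contig were higher in ES, in both genotypes, with log2 changes of 1.13 to 2.08 by gene in wt/wt, and their sum lay between 10125 and 11473 CPM in RS wt/wt libraries and between 21922 and 26022 in those of ES wt/wt. Among 26 assembly factors outside the members, 6 genes were higher and 6 lower in wt/wt. Of 15 genes of the citric acid cycle and pyruvate dehydrogenase, 1 was higher (Ogdh, a subunit of the oxoglutarate dehydrogenase, 1.36) and 8 were lower. Of 10 carriers and porins, 2 were higher, the ADP/ATP carrier Slc25a4 by 4.10 and the pyruvate carrier subunit Mpc2 by 0.79, and 4 were lower, among them the porins Vdac2 (-1.08) and Vdac3 (-1.04). These changes are log2 values by gene, on the TMM scale, with calls by edgeR against 25.6% higher and 23.4% lower of all genes.

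In dcat/dcat the stage comparison gave 23 members higher in ES (16.7%, against 24.0% of all contigs) and 37 lower (26.8%, against 16.9%) by edgeR, with a median log2 change of -0.25 against -0.18 over all contigs. By gene, 21 of 94 were higher (22.3%, against 26.0%) and 32 lower (34.0%, against 23.0%). Complex V had 11 higher (34.4%) and 3 lower (9.38%) of 32 and a median of 0.48. Complex I had 5 higher (9.26%) and 17 lower (31.5%) of 54, and complex IV 3 higher (13.6%) and 9 lower (40.9%) of 22. Under total counts 8 members were higher (5.80%, against 16.6% of all contigs) and 76 lower (55.1%, against 42.2%), and the median of complex V was -0.19. The calls of both genotypes shared 47 members, 77.0% of the wt/wt calls and 78.3% of the dcat/dcat calls, all in the same direction, 17 higher and 30 lower. The same overlap was not computed over all contigs, so it cannot be read as a trait of the members. A further 14 were called in wt/wt and 13 in dcat/dcat, and among these 27 the difference between genotypes, tested as an interaction, was called for 0 (edgeR).

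The comparison of dcat/dcat with wt/wt asked whether the loss of TENT5C activity changed member levels. In RS 0 members were called by edgeR (0% of all contigs), 0 had an unadjusted p under 0.05 (0.828% of all contigs had), and DESeq2 called 0. In ES 0 were called by edgeR (0%), 4 had an unadjusted p under 0.05 (2.90%, against 3.01% of all contigs), and DESeq2 called 0. For the stage by genotype interaction 0 were called by edgeR (0%), 0 had an unadjusted p under 0.05 (against 1.44%), and DESeq2 called 0. The median size of the log2 difference was 0.0887 in RS and 0.186 in ES, with median standard errors of 0.249 and 0.285. No member differed by 1 or more on the log2 scale in RS, and 3 did in ES.

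The 4 members with an unadjusted p under 0.05 in ES were all higher in dcat/dcat, and none passed adjustment (adjusted p = 0.99997, edgeR). The short 2-exon contig ENSMUST00000156503 of Uqcrq measured 12.7, 17.1 and 10.6 CPM in ES wt/wt against 30.1, 35.0 and 33.8 in ES dcat/dcat, a log2 difference of 1.24 (SE 0.34, unadjusted p = 0.00248, edgeR). Atp5mc3, the third gene of the c subunit, measured 31.7, 36.1 and 38.8 CPM against 53.3, 67.4 and 54.0 (0.71, SE 0.264, unadjusted p = 0.0165, edgeR), and had the smallest p of the interaction too (0.76, unadjusted p = 0.0514). Cox8a differed by 0.85 (SE 0.344, unadjusted p = 0.027, edgeR), with the libraries given above. Ndufab1, the mitochondrial acyl carrier protein, measured 50.7, 41.8 and 42.4 CPM against 62.6, 57.4 and 70.9 (0.50, unadjusted p = 0.0394, edgeR). In each of these contigs the 3 dcat/dcat libraries lay above the 3 wt/wt libraries. Over all members 7 were higher without overlap in ES dcat/dcat (against 4.01% of all contigs) and 4 were lower without overlap (against 3.65%). In RS the smallest p-values were 0.0613 for a contig of Ndufb1 (0.66), 0.0813 for the same Uqcrq contig (0.54) and 0.102 for a contig of Ndufa12 (0.78), all unadjusted and from edgeR. The interaction gave 1.08 for the assembly factor Ndufaf7 (unadjusted p = 0.0996, edgeR) and 0.80 for Cox8a (unadjusted p = 0.133).

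Libraries that share replicate number 1 stood apart from numbers 2 and 3 in the split between contigs of a gene. This was noticed in the data and the term for the number was fitted afterwards. It was called for 19 of 138 member contigs (13.8%, against 20.1% of all contigs, edgeR), 14 of them lower and 5 higher in replicate 1. Among members whose gene had several contigs 15 of 76 were called (19.7%), and among the others 4 of 62 (6.45%), with 29.1% and 7.82% over all contigs. With counts summed by gene, 3 of 94 member genes were called (3.19%, against 4.01% of all genes): Ndufa4l2, Ndufaf3 and Ndufc2.

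The smallest adjusted p belonged to a contig of Ndufa12, a complex I accessory subunit, that the annotation assigns to nonsense-mediated decay (ENSMUST00000135292). In order of replicate number, RS wt/wt held 6, 101 and 162 counts of it, RS dcat/dcat 9, 70 and 118, ES wt/wt 3, 25 and 5, and ES dcat/dcat 1, 18 and 22 (adjusted p = 1.54e-08 for the number, edgeR). Replicate 1 was the lowest in all 4 groups, at 1.01% to 2.27% of the gene's counts, against 5.56% to 19.96% in the others. Counts of contig ENSMUST00000128787 of Ndufv1, the subunit that oxidises NADH, were 1, 16 and 37, then 0, 10 and 24, then 0, 5 and 0, then 0, 3 and 3 in the same order. The coding contig ENSMUST00000042497 of Ndufv1 had 110, 21 and 53 counts in RS wt/wt against 84, 22 and 29 in RS dcat/dcat, highest in replicate 1. Of the 19 contigs, 3 were also called between stages in wt/wt. Fitting the stage comparison without the 4 libraries numbered 1 left 131 members. In wt/wt it called 20 members higher (15.3%, against 25.9% of all contigs) and 44 lower (33.6%, against 17.7%). The same fit of dcat/dcat called 24 higher (18.3%, against 26.9%) and 39 lower (29.8%, against 19.5%). What separates the numbers is not stated in the sources used here.

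**Figure D5:**
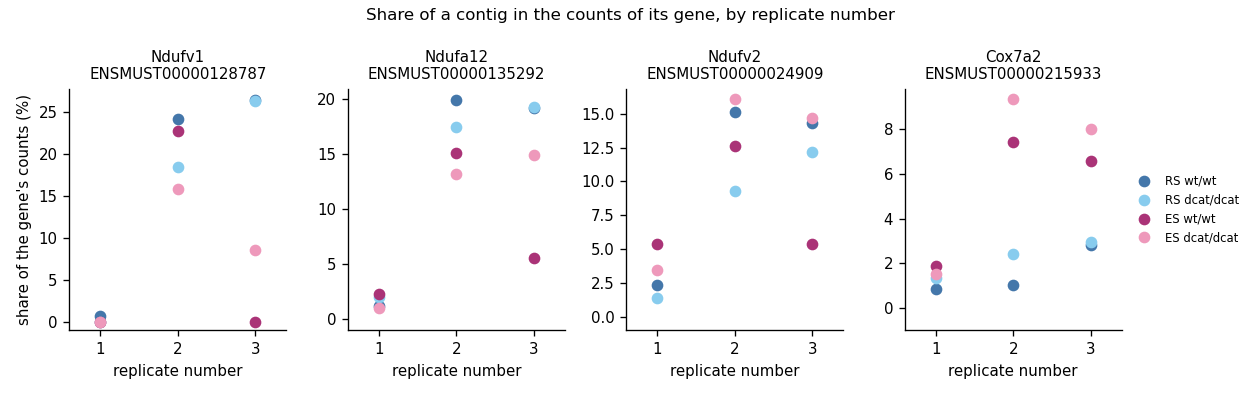
Share of 4 contigs in the counts of their gene, in percent, against the replicate number in the labels. Each point is 1 library, coloured by group. In all 4 groups replicate 1 held at most 2.27% of the Ndufa12 counts in this contig, less than any library numbered 2 or 3.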

How the data were processed

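Poly(A) RNA of 12 libraries (3 in each of 4 groups) was read by direct nanopore sequencing, and groups were taken from the sample labels. The authors aligned reads to the transcripts of GRCm38 (mm10), and minimap2 2.20-r1061 is listed in the submitters' processing notes. The authors deposited whole-read counts per transcript, not normalized, and in separate tables other columns, of which only the deposited gene symbols were used here, since the rest hold the authors' fold changes and p-values. Direct RNA reads start at the 3′ end, so short or overlapping contigs of a gene share reads. Members and gene lists were chosen with earlier results of these data known.

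Contigs with at least 10 counts in at least 2 libraries of a group were kept. Counts were scaled by TMM and tested in edgeR 4.0.16 (R 4.3.3) by quasi-likelihood with 1 mean per group, Benjamini-Hochberg adjustment and a threshold of 0.05, and the code was checked on simulated counts. DESeq2 1.42.0 was an alternative. Standard errors were derived from the fitted change and its F statistic. CPM are counts per 1000000 after TMM. Named members are the isoform pairs, up to 8 members that rose and 8 that fell per stage comparison, the 3 smallest p-values per genotype comparison, the most counted contig per complex and contigs called in opposite directions. Others were named after their values were seen. Gene classes come from GENCODE vM21.

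The methods state that both stages were sorted from the same mice and that each sorting session held a mouse of each genotype, while which mice a library number holds is not stated in the sources used here. Same-numbered libraries deviated together between RS wt/wt and RS dcat/dcat (r = 0.70, 0.38 and 0.47 over all contigs) and between RS and ES of dcat/dcat (r = 0.52, 0.25 and 0.29). Libraries numbered 2 and 3 also deviated together across these numbers, at r = 0.27 and 0.23 in the first comparison and 0.19 and 0.19 in the second. In both comparisons number 1 had a negative r with numbers 2 and 3. No pair of libraries held identical counts. Depth limits precision: 3 counts correspond to 1.77 to 10.6 CPM.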

Additional observations from a re-analysis of the deposited data

How the results depend on the processing

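Among 67 results for named contigs and 1005 alternative values, 946 kept direction and call, 38 were no longer called, 5 were newly called and 16 changed sign, 8 of which set a contig against the sum of its gene. Under total counts 8 members were higher and 78 lower in wt/wt, and 8 higher and 76 lower in dcat/dcat. With at least 10 counts in every library 6 were higher in wt/wt (7.59%, against 33.4% of all contigs) and 12 in dcat/dcat (15.2%, against 33.5%). DESeq2 gave 20 higher and 38 lower in wt/wt, and for dcat/dcat 22 and 37. The cause of these moves was not tested beyond the shift of the median of all contigs and the 79 members left. Without 1 library at a time, members called ran from 40 to 59 in wt/wt and 47 to 58 in dcat/dcat, higher calls from 15 to 21 and 17 to 22, and lower calls from 24 to 42 and 27 to 36. The shares over all contigs are not given for the fits without 1 library. Outside the top 10 contigs the member share differed between stages by -1.14 points in wt/wt and -1.08 in dcat/dcat, against -1.28 and -1.22 over all counts.

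For the pairs, leaving out 1 library gave ES minus RS differences of -36.1 to -31.6 points for Cyct, -5.82 to -5.10 for Cox6b2 and -3.30 to -3.05 for Cox8c. The genotype differences ran from -7.70 to -3.25, -2.80 to -1.98 and -1.30 to -1.06 and passed without some libraries: Cyct at -6.73 without RS dcat/dcat replicate 2, Cox6b2 at -2.66 without RS wt/wt replicate 2 and -2.38 without RS dcat/dcat replicate 1, and Cox8c at -1.24 and -1.25. With counts divided by contig length they passed at -2.96, -2.09 and -0.998 points. That alternative was chosen after seeing the data, and whole-read counts do not call for it. The same division changed the ES minus RS differences to -11.9 points for Cyct, -4.73 for Cox6b2 and -2.67 for Cox8c (exact permutation p = 0.005, adjusted p = 0.01 for each).

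Other signs turned as follows. Cox6b1 in wt/wt was -0.52 under total counts and -0.050 without the libraries numbered 1. Uqcrq was -0.38 in wt/wt and -0.24 in dcat/dcat, and Atp5f1e -0.062 in wt/wt, under total counts. Summed by gene, which is a value of the gene and not of the named contig, Atp5f1b was at -0.53 in wt/wt and -0.38 in dcat/dcat, opposite to its short contig, and Ndufb1 and Ndufa12 were at -0.0095 and -0.023 between the RS genotypes, opposite to their named contigs. Without 1 library at a time Ndufaf3 ran from -1.43 (without ES wt/wt replicate 1) to 0.25 (without RS wt/wt replicate 1) in wt/wt and from -0.53 to 0.15 (without ES dcat/dcat replicate 3) in dcat/dcat.

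With the replicate number as a block, 75 members were called in wt/wt (25 higher, 50 lower) and 75 in dcat/dcat (29 higher, 46 lower), against 61 and 60 without it, and 0 in both genotype comparisons and the interaction (edgeR). Of all contigs 51.6% were called with the block in wt/wt (27.2% higher, 24.4% lower) and 51.9% in dcat/dcat. It changed no call of a named contig. With stage labels exchanged within same-numbered pools, the pair differences of -34.5, -5.34 and -3.18 points had an adjusted p of 0.0625 (exact test). No smaller adjusted p was possible with these arrangements, so this test could not decide whether the differences pass. With the block and counts summed by gene, the gene Atp5f1b stood at -0.53 and -0.38 and the genes Ndufb1 and Ndufa12 at -0.0057 and -0.0069 in RS. Between the wt/wt stages and between the ES genotypes, same-numbered libraries did not all deviate together (lowest r = -0.09 and 0.03).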
